A study of Mus musculus with 6 samples.

Results

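AMP-activated protein kinase (AMPK) and the kinases that act on it were examined through 10 genes. They were chosen by name, with earlier results of these data known. The genes were the catalytic subunits Prkaa1 and Prkaa2, the scaffold subunits Prkab1 and Prkab2, the nucleotide-binding subunits Prkag1, Prkag2 and Prkag3, and the kinase genes Stk11, Camkk2 and Camk2a. They are 10 of the 20632 genes listed in the deposited table, and all 10 were among the 12116 genes with enough reads to be tested. Total RNA was taken from whole hind limb muscle (tibialis anterior, extensor digitorum longus, gastrocnemius, soleus and quadriceps) of 3 Baf155 WT and 3 Baf155 ΔMF mice, with 1 library per mouse, to ask how the loss of Baf155, a core subunit of the SWI/SNF chromatin remodelling complex, changed gene expression in resting muscle. All mice were males of 3 months on a C57BL/6 background (C57BL/6J in the methods) with both alleles of Baf155 floxed (Baf155 f/f). The Baf155 WT mice carried no Cre. The Baf155 ΔMF mice carried MCK-Cre, a Cre transgene driven by the muscle creatine kinase promoter, which is active in myofibres and also in heart, so other cells in the muscle keep the gene.

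AMPK is a heterotrimer of a catalytic α, a scaffold β and a nucleotide-binding γ subunit, and it serves cells as a sensor of energy. It is activated when AMP or ADP binds the γ subunit and when the α subunit is phosphorylated, by LKB1 (the product of Stk11) or, in response to calcium, by CaMKK2. In skeletal muscle, contraction activates the enzyme, and a complex with the γ subunit encoded by Prkag3 is typical of fast glycolytic fibres. The study measured AMPK phosphorylation in running mice at the protein level, whereas the RNA described here came from unexercised mice and gives transcript levels, not enzyme activity.

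The libraries held 8426022 to 12469335 counts, so that 3 counts corresponded to 0.230 to 0.351 CPM (reads of a gene relative to the size of its library), below the level of every gene of the group. Levels are given as CPM after scaling of library sizes by the trimmed mean of M-values (TMM), each mean with its SD over 3 mice. Smarcc1, which encodes Baf155, had 23.4, 19.5 and 16.95 CPM in the Baf155 WT mice and 7.05, 6.54 and 7.72 CPM in the Baf155 ΔMF mice (log2 fold change -1.49, SE 0.15, edgeR adjusted p = 0.00907). One Baf155 WT mouse stood apart from the other Baf155 WT mice. It shares the title prefix MS13 with Baf155 ΔMF mice 1 and 2, whereas Baf155 WT mice 2 and 3 carry MS15 and Baf155 ΔMF mouse 3 carries MS14. The labels do not say what the prefixes mean, and only MS13 holds mice of both genotypes, so that a fit with the prefix as a covariate takes its genotype difference from those 3 mice. On the first principal component (43.3% of the variance) Baf155 WT mouse 1 lay at -13.4, beside the MS13 Baf155 ΔMF mice at -17.1 and -15.4, and away from Baf155 WT mice 2 and 3 at 24.98 and 22.5, and log2 fold changes of the 10 genes that moved by over 1.5 times without this mouse are given with and without it. Without this mouse no title prefix holds mice of both genotypes, so genotype and prefix cannot be told apart in the fits that leave it out. The labels do not name a batch, so p-values measure the spread between these mice.

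None of the 10 genes differed between genotypes at an adjusted p under 0.05 in edgeR's quasi-likelihood test, where 0.0248% of all genes tested passed. None passed an unadjusted p under 0.05 either, against 7.95% of all genes tested, nor an unadjusted p under 0.01 together with a fold under 0.7 or over 1.4, against 1.11%. Of the 10 log2 fold changes (Baf155 ΔMF minus Baf155 WT), 5 were above 0 and 5 below, with a median of 0.00 beside -0.00 over all genes tested. The largest in size was 0.23, and 74.4% of all genes tested had a difference of that size or smaller. The 95% intervals of the 10 genes reached from -0.57 to 0.51 on the log2 scale at their outermost bounds, which are folds of 0.676 and 1.43. The interval of each gene limits what 3 mice per genotype could resolve for it, and was narrowest for Stk11 and widest for Prkag2. In whole muscle, fewer cells of a type and less RNA per cell cannot be told apart.

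**Figure D1:**
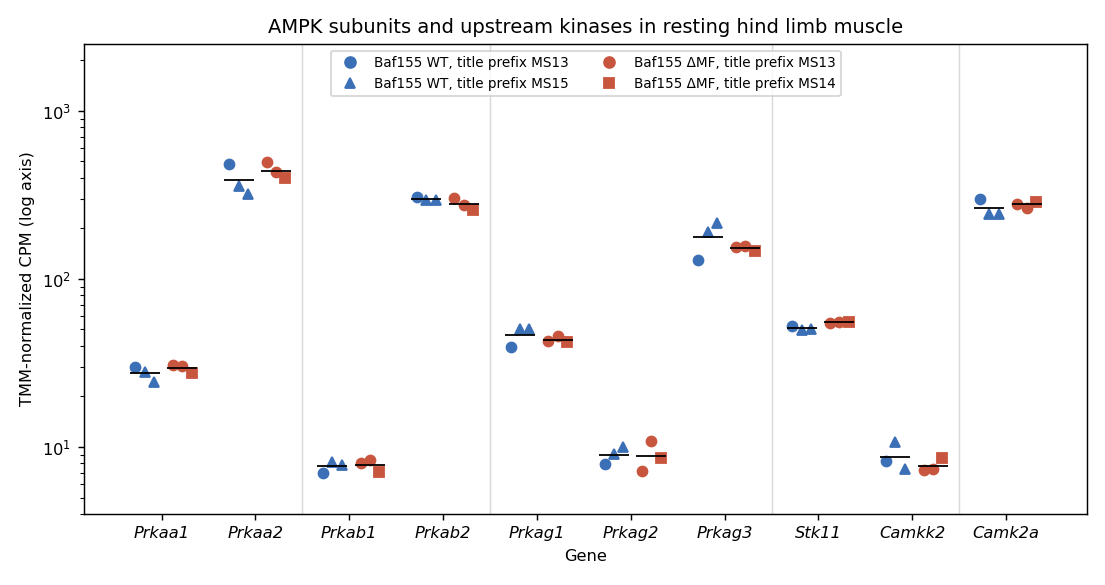
TMM-scaled level of each of the 10 genes (CPM, log axis) in the 3 Baf155 WT and 3 Baf155 ΔMF mice, 1 point per mouse, with the mean of each genotype. The points of Stk11 separated by genotype, those of the other 9 genes overlapped, and Prkaa2 and Prkag3 had the widest relative spread among Baf155 WT mice (coefficients of variation of 21.4% and 24.6%).

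Levels were first compared between genes per kb of exon, over the exons of all protein-coding transcripts of a gene, untranslated parts included. On this scale the AMPK transcripts of hind limb muscle were mainly those of Prkaa2, Prkab2 and Prkag3. Over the 6 mice Prkab2 was at 57.7 ± 3.87 CPM per kb, Prkaa2 at 51.9 ± 8.47 and Prkag3 at 46.6 ± 8.84 (mean ± SD, n = 6), with Camk2a among them at 47.1 ± 4.07. The ranges of these 4 genes overlapped from each neighbour to the next. Prkag1 (24.8 ± 2.44) and Stk11 (19.0 ± 0.942) followed, then Prkaa1 (6.12 ± 0.530), Prkab1 (3.62 ± 0.258), Prkag2 (2.13 ± 0.322) and Camkk2 (1.03 ± 0.160), and no range from Prkag3 downwards overlapped the next. With the length of the principal transcript instead, Prkag3 came first at 63.9 CPM per kb, and Prkab1, Camkk2 and Prkag2 closed the order at 3.76, 3.00 and 2.67 with ranges that overlapped between neighbours. The order at both ends therefore depends on which transcripts are read.

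Within each subunit family 1 gene held most of the signal in every mouse. Prkaa2 accounted for 88.2% to 90.4% of the α transcripts per kb and Prkab2 for 93.4% to 94.9% of the β transcripts. The γ transcripts were shared between Prkag3 (60.7% to 66.8%), Prkag1 (30.6% to 36.2%) and Prkag2 (2.49% to 3.58%). By genotype, Prkaa2 held 89.0% ± 1.12 of its family in Baf155 WT and 89.7% ± 0.594 in Baf155 ΔMF mice, Prkab2 held 94.3% ± 0.520 and 93.8% ± 0.387, and Prkag3 held 63.9% ± 3.07 and 62.2% ± 0.915 (SD, n = 3).

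**Figure D2:**
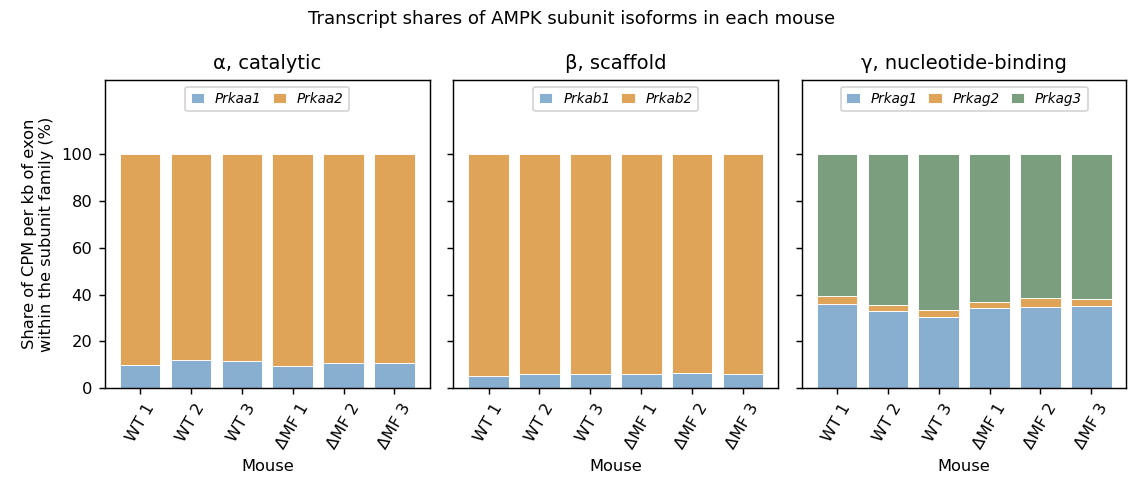
Share of each AMPK subunit gene in the summed CPM per kb of exon of its family (percent), in 6 bars for the 6 mice, for the α, β and γ families. Prkaa2 and Prkab2 fill most of the bar in every mouse, and Prkag3 and Prkag1 together fill nearly all of the γ bar.

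The balance between paralogs was tested as a ratio within each library, which needs no scaling between libraries, although paralogs differ in exon length and a length trend that differs between libraries, as in these mice, can move the ratio. The ratio of Prkaa2 to Prkaa1 counts was 15.97, 12.8 and 13.3 in Baf155 WT and 16.04, 14.2 and 14.5 in Baf155 ΔMF mice. The ratio of Prkab2 to Prkab1 was 43.9, 36.2 and 38.1 against 37.7, 33.1 and 35.9, and that of Prkag3 to Prkag1 was 3.28, 3.803 and 4.27 against 3.62, 3.46 and 3.45. Genotypes overlapped in each of these ratios, as they did for Prkag2 to Prkag1, which ran from 0.168 to 0.237. The differences of the mean log2 ratios were 0.09, -0.15, -0.10 and 0.06, with two-sided exact permutation p-values of 0.4, 0.2, 0.6 and 0.7. Adjusted over the 4 ratios each was 0.7, and 0.1 is the smallest p that 3 mice against 3 allow.

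Prkaa2, on the minus strand of chromosome 4 (chr4:105029874-105109890, GRCm38), encodes α2, the main catalytic subunit of muscle. It had 479.5, 358 and 322 CPM in the Baf155 WT mice and 493, 431 and 399.6 CPM in the Baf155 ΔMF mice. The highest Baf155 WT mouse was the MS13 mouse, which lay between the Baf155 ΔMF mice, while the remaining Baf155 WT mice lay below all 3 of them. The means were 386 ± 82.7 and 441 ± 47.7 CPM, with a log2 fold change of 0.19 (SE 0.15, 95% interval -0.13 to 0.51, edgeR adjusted p = 0.705). Without the MS13 Baf155 WT mouse the log2 fold change was 0.38 (SE 0.11, edgeR adjusted p = 0.0423), and within the MS13 mice alone it was -0.05. Prkaa1, which encodes the widely expressed α1 (chr15:5143861-5181899, plus strand), had 30.02, 27.9 and 24.2 CPM in Baf155 WT and 30.8, 30.3 and 27.6 CPM in Baf155 ΔMF mice. Its genotypes overlapped, and the log2 fold change was 0.11 (SE 0.11, adjusted p = 0.776), or 0.18 (SE 0.11, adjusted p = 0.355) without the MS13 Baf155 WT mouse.

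The β subunits hold the complex together and bind glycogen. Prkab2 (chr3:97658193-97673812, plus strand) had 306.9, 296.4 and 295.9 CPM in Baf155 WT and 301.9, 274.7 and 256.1 CPM in Baf155 ΔMF mice. The Baf155 WT mice lay close together, at a mean of 299.8 ± 6.24 CPM, and 1 Baf155 ΔMF mouse fell among them. The log2 fold change was -0.11 (SE 0.09, 95% interval -0.32 to 0.10, edgeR adjusted p = 0.734). Prkab1 (chr5:116013586-116024508, minus strand) had 6.996 to 8.19 CPM in Baf155 WT and 7.13 to 8.31 CPM in Baf155 ΔMF mice (log2 fold change 0.03, SE 0.14, adjusted p = 0.958), with -0.03 (SE 0.16, adjusted p = 0.946) without the MS13 Baf155 WT mouse.

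Prkag3 (chr1:74738922-74749221, minus strand), the γ3 gene whose expression is nearly restricted to skeletal muscle, varied most between Baf155 WT mice among the 10 genes. It had 129.4, 190.3 and 214.6 CPM in Baf155 WT and 154.1, 157.5 and 145.7 CPM in Baf155 ΔMF mice. Here the MS13 Baf155 WT mouse was the lowest of all 6, and the remaining Baf155 WT mice were the highest. The coefficient of variation was 24.6% in Baf155 WT and 3.98% in Baf155 ΔMF mice. The log2 fold change was -0.23 (SE 0.15, 95% interval -0.57 to 0.12, edgeR adjusted p = 0.688). Without the MS13 Baf155 WT mouse it was -0.41 (SE 0.09, adjusted p = 0.0139), and within the MS13 mice it had the opposite sign, at 0.27.

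The other γ genes showed smaller differences. Prkag1, the widely expressed γ1 gene (chr15:98812797-98831521, minus strand), had 39.4, 50.0 and 50.2 CPM in Baf155 WT and 42.6, 45.6 and 42.2 CPM in Baf155 ΔMF mice. As with Prkag3, the MS13 Baf155 WT mouse was below every other mouse and the remaining Baf155 WT mice were above them. The log2 fold change was -0.10 (SE 0.11, adjusted p = 0.795), and without that mouse it was -0.20 (SE 0.09, edgeR unadjusted p = 0.044, adjusted p = 0.196). Prkag2, the γ2 gene that is best known from heart (chr5:24862744-25100642, minus strand), had 7.87 to 9.99 CPM in Baf155 WT and 7.15 to 10.8 CPM in Baf155 ΔMF mice (log2 fold change -0.02, SE 0.17, adjusted p = 0.975), with -0.10 (SE 0.17, adjusted p = 0.784) without the MS13 Baf155 WT mouse.

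Stk11 encodes LKB1, the main kinase of AMPK in contracting muscle (chr10:80115803-80130682, plus strand). It had 52.4, 49.7 and 50.2 CPM in Baf155 WT and 54.7, 55.4 and 55.7 CPM in Baf155 ΔMF mice. Each Baf155 ΔMF mouse was above each Baf155 WT mouse, which no other gene of the group showed. Groups failed to overlap for 10.8% of all genes tested, and for 5.20% with Baf155 ΔMF above, so 1 in 10 is not set apart from the background. The means were 50.8 ± 1.401 and 55.3 ± 0.523 CPM, a fold of 1.09 (log2 fold change 0.12, SE 0.08, 95% interval -0.06 to 0.30, edgeR adjusted p = 0.683). Stk11 overlaps Cbarp on the opposite strand, and its deposited estimate was not a whole number in any of the 6 mice, as arises where reads match several places and are divided between them. The estimate of Prkag3 was not whole in 5 mice and that of Camk2a in 2.

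Camkk2, the calcium-dependent AMPK kinase gene (chr5:122731170-122779409, minus strand), had 8.26, 10.6 and 7.41 CPM in Baf155 WT and 7.26, 7.37 and 8.54 CPM in Baf155 ΔMF mice. Genotypes overlapped, with a log2 fold change of -0.19 (SE 0.17, adjusted p = 0.743). Camk2a had 300.3, 244.3 and 244.5 CPM in Baf155 WT and 280.5, 263.2 and 288.4 CPM in Baf155 ΔMF mice. All Baf155 ΔMF mice lay between the lowest and the highest Baf155 WT mouse, and the log2 fold change was 0.08 (SE 0.11, adjusted p = 0.843), or 0.18 (SE 0.09, adjusted p = 0.227) without the MS13 Baf155 WT mouse. Camk2a is best known as the neuronal CaMKIIα gene, and in muscle it also gives αKAP, an anchoring protein without a kinase domain, which a table by gene cannot separate. The nerve marker Snap25 was at 0 counts in all 6 libraries and Syn1 at 0.46 CPM or less.

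The MS13 Baf155 WT mouse also differed from the other Baf155 WT mice along transcript length. Over the 11826 tested genes with an exon length, the log2 difference of that mouse from the mean of Baf155 WT mice 2 and 3 correlated with exon length at a Spearman rho of 0.36, as a description over genes of shared libraries. Its median was -0.16 for genes below 2 kb of exon and 0.21 for genes of 8 kb or more. The share of all counts taken by Ttn, which has one of the longest transcripts known, was 7.89%, 4.98% and 3.92% in the Baf155 WT mice and 8.16%, 7.25% and 6.39% in the Baf155 ΔMF mice, and Prkaa2 placed the 6 mice in the same order as Ttn did. Prkaa2 has 7969 bases of exon, Prkag3 3546 and Prkag1 1812. The genotype log2 fold changes over all 6 mice ran the same way, with a median of -0.09 below 2 kb, -0.03 from 2 to 4 kb, 0.08 from 6 to 8 kb and 0.13 at 8 kb or more.

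Both differences that passed without the MS13 Baf155 WT mouse were therefore recomputed with each library's length trend taken out, an alternative chosen after seeing the data. Without that mouse 7.77% of all genes tested passed, 3.60% higher and 4.17% lower in Baf155 ΔMF, and 2 of the 10 genes did, Prkaa2 higher and Prkag3 lower. In that fit no title prefix holds mice of both genotypes, so genotype and prefix cannot be told apart. With the length trend also removed, 5.18% of all genes passed. Prkaa2 then had a log2 fold change of 0.23 (SE 0.09, edgeR adjusted p = 0.163) and did not pass. Prkag3 was at -0.41 (SE 0.08, adjusted p = 0.0124) and passed. With all 6 mice and the length trend removed, 0.0169% of genes passed, and Prkaa2 (0.11, SE 0.11, adjusted p = 0.829) and Prkag3 (-0.23, SE 0.15, adjusted p = 0.728) did not. No test compared Prkaa2 with Prkag3, and the cause of either difference was not tested.

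**Figure D3:**
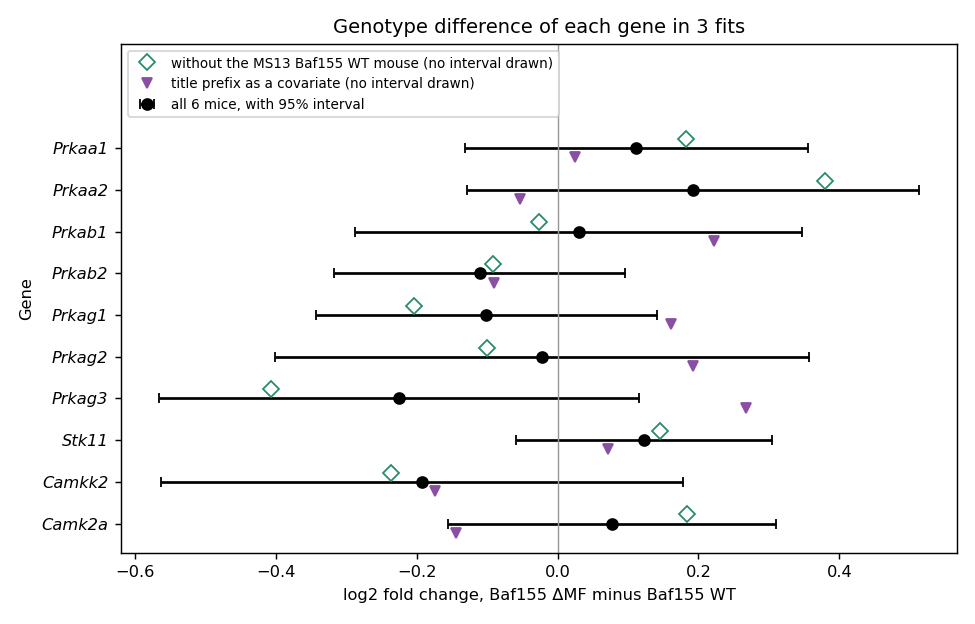
Log2 fold change of each gene (Baf155 ΔMF minus Baf155 WT) over all 6 mice with its 95% interval (black), without the MS13 Baf155 WT mouse (open diamonds) and with the title prefix as a covariate (triangles). Every black interval crosses 0, and the diamond and the triangle fall on opposite sides of 0 for Prkaa2, Prkab1, Prkag1, Prkag2, Prkag3 and Camk2a.

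Markers of other cells moved in the same libraries. All 6 leukocyte markers were lower in Baf155 ΔMF at an unadjusted p under 0.05 (edgeR), beside 4.60% of all genes tested. Their summed level was 61.6 to 174.9 CPM in Baf155 WT and 55.2 to 90.6 CPM in Baf155 ΔMF mice. The MS13 Baf155 WT mouse was at 61.6 CPM, within the range of the Baf155 ΔMF mice. The 3 adipocyte markers were also lower on average, at 27.2 to 62.5 and 25.2 to 37.5 CPM, with 1 of them at the unadjusted limit. The 4 endothelial markers were higher on average, at 192 to 249 and 251 to 273 CPM. Of these, 2 were at that limit, beside 3.35% of all genes tested. The MS13 Baf155 WT mouse was at 27.2 CPM for the adipocyte and 249 CPM for the endothelial markers, in each case the Baf155 WT value nearest to the Baf155 ΔMF mice. The 12 fast fibre markers summed to 140734 to 147023 CPM in Baf155 WT and 132892 to 142691 CPM in Baf155 ΔMF mice, and 8 of the 12 had lower means in Baf155 ΔMF. Within that list Myh1, the fast 2X myosin, went the other way, with 4034 to 5731 CPM in Baf155 WT and 6341 to 7683 CPM in Baf155 ΔMF mice (log2 fold change 0.49, edgeR unadjusted p = 0.00672, adjusted p = 0.601), as did Myh2, the 2A myosin (0.38, unadjusted p = 0.0294, adjusted p = 0.601). The 9 slow fibre markers summed to 801 to 1188 and 999 to 1164 CPM. Of the 5 fibroblast markers, summing to 1575 to 1954 and 1415 to 2148 CPM, Dcn (-0.43, unadjusted p = 0.0213) and Lum (-0.41, unadjusted p = 0.0404) were lower at the unadjusted limit. Pdgfra was also lower on average (-0.26), whereas Col1a1 (0.36) and Col3a1 (0.31) were higher, none of them at that limit. No marker of these lists passed the adjusted test, and their part in the AMPK values was not tested.

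The other genes of the pathway were read as 5 lists of 54 genes, of which 51 were tested. None passed the adjusted test. At an unadjusted p under 0.05, 2 were higher and 1 lower in Baf155 ΔMF (3.35% and 4.60% of all genes tested), and the median log2 fold change was 0.02, with 31 above 0 and 20 below. Among the partners of LKB1, Cab39, the scaffold of the LKB1 complex, differed by 0.06 (SE 0.09), its pseudokinase Strada by -0.07 (SE 0.14), and Map3k7, which encodes the alternative kinase TAK1, by 0.06 (SE 0.09), and 0 of 6 genes of that list passed even the unadjusted limit. Of the 7 other calmodulin-dependent kinases tested, 5 were below 0 and none passed that limit either, with Camk1 at -0.26 (SE 0.12, adjusted p = 0.622), Camk2b at 0.19 (SE 0.09, adjusted p = 0.622) and Camk1d at -0.40 (SE 0.25, adjusted p = 0.660).

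Among the 10 tested AMPK-related kinases, which LKB1 also phosphorylates, 1 was lower and 1 higher at the unadjusted limit. Sik1, a salt-inducible kinase that restrains CREB coactivators, had 13.4, 19.97 and 18.9 CPM in Baf155 WT and 10.7, 14.8 and 12.3 CPM in Baf155 ΔMF mice. The MS13 Baf155 WT mouse again lay among the Baf155 ΔMF mice (log2 fold change -0.47, SE 0.17, edgeR unadjusted p = 0.0184, adjusted p = 0.601). Mark2, a microtubule affinity-regulating kinase, differed by 0.30 (SE 0.13, unadjusted p = 0.0449, adjusted p = 0.617), and Snrk by 0.19 (SE 0.13, adjusted p = 0.682).

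Of the 9 AMPK regulators 1 was higher at the unadjusted limit. Ppm1e, a phosphatase gene whose product removes phosphate from AMPKα, had 0.874, 1.15 and 1.07 CPM in Baf155 WT and 1.92, 1.45 and 2.22 CPM in Baf155 ΔMF mice. Its groups did not overlap, but each library held only 9 to 19 counts (log2 fold change 0.83, SE 0.31, edgeR unadjusted p = 0.0205, adjusted p = 0.601), and within the MS13 mice the difference was 0.95. Sesn2, a stress-induced sestrin, also did not overlap, at 0.982 to 2.43 CPM in Baf155 WT and 2.78 to 2.81 CPM in Baf155 ΔMF mice (0.53, SE 0.32, adjusted p = 0.656). Its libraries held only 11 to 31 counts each. Of all genes tested, 5.20% had groups that did not overlap with Baf155 ΔMF above. Fnip1, a folliculin partner, differed by 0.18 (SE 0.15, adjusted p = 0.738).

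The 19 genes of AMPK substrates held none at the unadjusted limit, with a median log2 fold change of 0.04. Acacb, the muscle acetyl-CoA carboxylase that AMPK inhibits to favour fatty acid oxidation, had 348.5, 245.1 and 212.5 CPM in Baf155 WT and 333.7, 312.4 and 311.4 CPM in Baf155 ΔMF mice (log2 fold change 0.25, SE 0.16, adjusted p = 0.664). Gys1, muscle glycogen synthase, was at 374.7, 263.6 and 269.4 against 358.0, 338.9 and 368.8 CPM (0.23, SE 0.13, adjusted p = 0.643). For both genes the MS13 Baf155 WT mouse was the highest of the 6 and the other Baf155 WT mice were the lowest. Ppargc1a, which encodes the mitochondrial coactivator PGC-1α, differed by 0.21 (SE 0.11, adjusted p = 0.627). Mff, a mitochondrial fission factor, was the only substrate gene without overlap (Baf155 ΔMF was below in 5.57% of all genes tested), at 107.8 to 112.4 CPM in Baf155 WT and 98.7 to 106.2 CPM in Baf155 ΔMF mice (-0.11, SE 0.08, adjusted p = 0.709), and it was named after its values were seen.

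**Figure D4:**
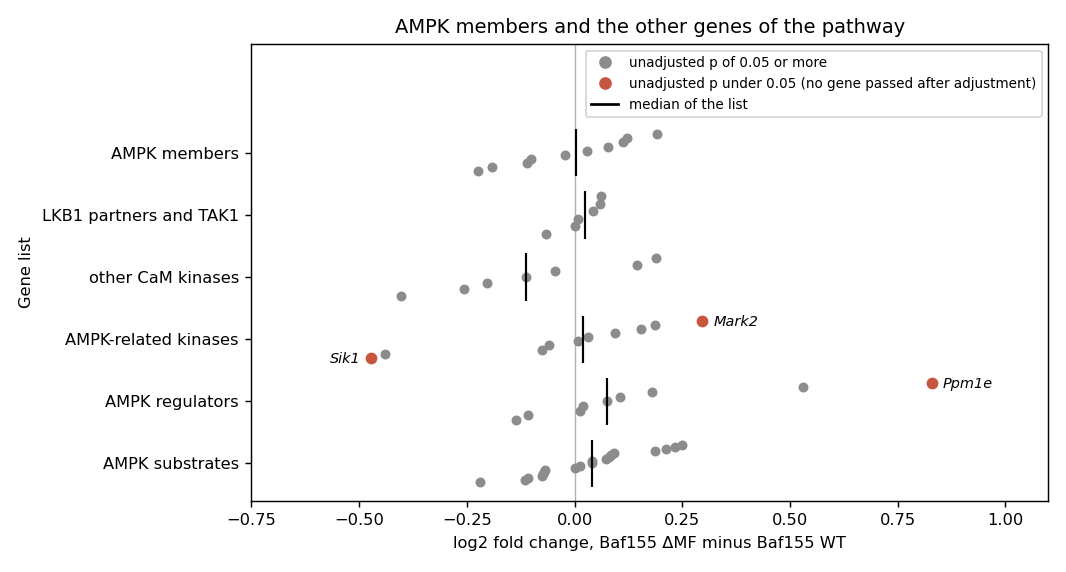
Log2 fold change (Baf155 ΔMF minus Baf155 WT) of the 10 AMPK genes and of the tested genes of 5 lists of the pathway, 1 point per gene, with the median of each list as a black bar. The medians lie between -0.11 and 0.07, and red marks the 3 genes with an unadjusted p under 0.05, Sik1, Mark2 and Ppm1e, none of which passed after adjustment.

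The sequences before the start sites of Prkaa2, the predominant α gene, and of Stk11, the only gene of the group whose genotypes did not overlap, are shown as the regions where a chromatin remodelling complex could act, although no binding or accessibility was analysed here. Both are the 250 bases before the RefSeq start (GRCm38.p6), written 5′ to 3′ on the gene's strand, at chr4:105109899-105110148 (minus strand) and chr10:80115545-80115794 (plus strand). Capitals mark ACGTG or GCGTG, the core of hypoxia response elements, and CANNTG, the E-box, on either strand, and the motifs may overlap.
Prkaa2: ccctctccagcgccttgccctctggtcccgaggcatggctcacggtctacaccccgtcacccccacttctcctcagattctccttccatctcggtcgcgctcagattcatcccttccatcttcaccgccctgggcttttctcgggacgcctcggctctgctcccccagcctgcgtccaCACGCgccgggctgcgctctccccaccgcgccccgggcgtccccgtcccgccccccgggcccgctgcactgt
Stk11: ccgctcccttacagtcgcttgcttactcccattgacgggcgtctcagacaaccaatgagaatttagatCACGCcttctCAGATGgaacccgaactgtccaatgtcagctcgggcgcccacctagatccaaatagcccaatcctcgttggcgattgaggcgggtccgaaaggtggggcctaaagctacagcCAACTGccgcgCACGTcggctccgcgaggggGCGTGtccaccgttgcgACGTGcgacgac
The Prkaa2 window held 1 GCGTG and no CANNTG at 70.0% GC, and the Stk11 window held 2 ACGTG, 2 GCGTG and 2 CANNTG at 59.6% GC. The table of start sites had an entry for 9 of the 10 genes, with 11 windows, and Camk2a was the gene without one. By the gene positions given above, the Prkag3 window (chr1:74748956-74749205) and some Prkag2 windows lie inside the annotated gene. They are included in the counts that follow. Either hypoxia core was present in 5 of the 9 genes and 7 of their 11 windows, beside 38.6% of all 32851 windows, CANNTG in 6 windows beside 66.2%, and TTCNNNGAA, the STAT motif, in 0 beside 7.02%. Both hypoxia cores contain CG, and 10 of the 11 windows were above the median ratio of observed to expected CG pairs over all windows (0.373). The shares were not matched for this ratio, and several of the windows with a hypoxia core belong to Prkag2 alone. A match to these letters is a description of the window and not a binding site.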

How the data were processed

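The authors deposited expected counts (estimated reads per gene, not normalized) for 6 libraries in 1 table by gene symbol. The libraries were TruSeq Stranded Total RNA libraries with 1 mouse each and no pooling. The submitters' processing notes name CASAVA 1.8.2, cutadapt 1.10, Bowtie2 2.2.7, TopHat2 2.1.1, RSEM 1.2.30, limma and the builds mm10 and GRCm38, without roles or order, and the annotation is not given in the sources used here. Whether counting used strand is not stated. Prkaa1, Prkab1, Prkab2, Prkag1, Prkag2 and Stk11 overlap genes on the opposite strand. Of 20632 genes, 2919 (14.1%) had an estimate that was not whole in some mouse.

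After rounding, edgeR 4.0.16 in R 4.3.3 was used (filterByExpr with a minimum count of 10 and a minimum total of 15, TMM, quasi-likelihood F test, no covariate, Benjamini-Hochberg adjustment over 12116 genes, limit 0.05). TMM factors were 0.958 to 1.05. Groups are the labelled genotypes. The replicate numbers follow accession order only. The members and lists were chosen with earlier results of these data known. The genes named were all members, Smarcc1, the 3 genes of each list with the smallest unadjusted p, and the 3 genes most correlated with Prkaa2 and with Prkag3. Markers came from fixed lists, of which Snap25, Syn1, Myh1, Myh2 and the 5 fibroblast markers were named after their values were seen. The same holds for Ulk1, Ttn, Mff and Stradb. Gene positions and exon lengths came from GENCODE M21 (GRCm38), and promoter windows from RefSeq (GRCm38.p6). Ratios were tested by exact permutation of deposited estimates.

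Alternative fits used limma 3.58.1 (voom), DESeq2 1.42.0, robust estimation, other scalings, other filters, the prefix of the titles as a term in the design, or all mice but 1. The principal transcript length, and a lowess trend of each library along exon length taken out as an offset (alone and without Baf155 WT mouse 1), were added after seeing the data. Fits were checked on simulated data. Intervals cover the spread between these mice, and floors of 3 counts cover counting error only.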

Additional observations from a re-analysis of the deposited data

How the results depend on the processing

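No paired analysis was possible because no label gives a replicate number that pairs mice across genotypes.

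With all 6 mice 3 genes passed and 0 of the 10 AMPK genes. The count over all genes was 17 with no filter on low counts, 22 with DESeq2, 5 with limma and voom, 16 with the prefix as a covariate, and 0 to 955 when 1 mouse was left out, with none of the 10 genes passing in those fits except 2 in the fit without Baf155 WT mouse 1. Counts of 0 arose without Baf155 WT mouse 2 and without Baf155 ΔMF mouse 2, where 451 and 568 genes were under 0.05 in edgeR before adjustment. With the length trend removed and Baf155 WT mouse 1 left out, 621 genes and 1 of the 10 passed. Both Prkaa2 (0.38) and Prkag3 (-0.41, and -0.41 with the length trend removed) passed only in fits without that mouse. The title prefix as a covariate reversed Prkaa2 to -0.053, Prkag1 to 0.16, Prkag2 to 0.19, Prkag3 to 0.27 and Camk2a to -0.14, and scaling by library size alone reversed Prkab1 to -0.037. Leaving out 1 mouse gave -0.026 to 0.093 for Prkab1, -0.20 to 0.11 for Prkag2, 0.076 to 0.38 for Prkaa2 and -0.41 to -0.070 for Prkag3. The difference of the log2 ratio of Prkag2 to Prkag1 ran from -0.065 without Baf155 ΔMF mouse 2 to 0.18 without Baf155 ΔMF mouse 1. In the pathway lists the prefix reversed Strada to 0.17, Camk1d to 0.058, Snrk to -0.095, Fnip1 to -0.13, Ppargc1a to -0.0091, Gys1 to -0.10 and Acacb to -0.11, and called Stradb (-1.48, adjusted p = 5.37e-05), and library size alone reversed Cab39 to -0.00023 and Map3k7 to -0.0035. The cause was not tested. Smarcc1 stayed between -1.59 and -1.36 when 1 mouse was left out, but its adjusted p rose to 0.0533, 0.0616 and 0.0678 without Baf155 ΔMF mouse 1, Baf155 WT mouse 2 and Baf155 ΔMF mouse 2. The share of Prkag3 among the γ transcripts, 63.1% over the 6 mice, was 67.8% with the principal transcript length.

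Prkaa1, Prkab2, Stk11 and Camkk2 kept their direction in all 17 alternatives. With 3 mice per genotype, differences inside each gene's interval could not be resolved.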

Other observations

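Over the 6 mice, the genes whose log2 CPM was most like that of Prkaa2 were Epg5 (Pearson r = 0.999), Bmpr2 (0.997) and 8030462N17Rik (0.996), and 291 tested genes had an r over 0.95. Those most like Prkag3 were Rer1 (0.998), Prss23 (0.992) and Ppp1ca (0.987), with 75 genes over 0.95. The points are 6 libraries that differ along transcript length. The genes most like Prkaa2 have 9660 (Epg5), 12899 (Bmpr2) and 5309 (8030462N17Rik) bases of exon, and those most like Prkag3 have 1596 (Rer1), 3767 (Prss23) and 1473 (Ppp1ca). Prkag3 itself differed by -0.64 (log2) between Baf155 WT mouse 1 and the other Baf155 WT mice, where the median of genes with 2 to 4 kb of exon was -0.036. The cause of this difference was not tested.

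With Baf155 WT mouse 1 left out, genotype and title prefix cannot be told apart. In that fit 8 of the 52 genes tested in the pathway lists passed the adjusted edgeR test, beside 7.77% of all genes. The substrate genes Acacb (0.48, SE 0.10), Ulk1 (0.44, SE 0.12), Gys1 (0.42, SE 0.09) and Ppargc1a (0.34, SE 0.09), with Fnip1 (0.41, SE 0.10) and Snrk (0.35, SE 0.09), were higher in Baf155 ΔMF, and Sik1 (-0.62, SE 0.14) and Camk1 (-0.36, SE 0.10) lower. With the length trend also removed 4 genes of these lists passed, beside 5.18% of all genes tested in that fit. They were Acacb (0.31, SE 0.08, adjusted p = 0.044), Gys1 (0.40, SE 0.08, adjusted p = 0.0118), Sik1 (-0.67, SE 0.14, adjusted p = 0.0146) and Camk1d (-0.75, SE 0.19, adjusted p = 0.0343). Within the MS13 mice the differences of Acacb, Gys1, Sik1 and Camk1d were -0.11, -0.10, -0.07 and 0.06.

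Stradb, which encodes a pseudokinase partner of LKB1 and was named after its values were seen, had 86.2, 30.1 and 31.7 CPM in Baf155 WT and 27.98, 33.9 and 86.0 CPM in Baf155 ΔMF mice. The highest mouse was at 2.86 times the lowest in Baf155 WT and at 3.07 times in Baf155 ΔMF, with a log2 fold change of -0.00 (edgeR adjusted p = 1.00). In the fit that took the title prefix as a covariate it was -1.48 (edgeR adjusted p = 5.37e-05), and no other gene of the pathway lists passed in that fit. Within genotypes, 0.578% of all genes tested varied as much or more (SD of log2 CPM). The high mice were Baf155 WT mouse 1 and Baf155 ΔMF mouse 3, which carry different title prefixes. Stk11 was at the other end, with 99.7% of tested genes varying as much or more.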
